A study of Mus musculus with 12 samples.

Results

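The 39 genes described here encode transcription factors that mark the progenitor domains of the developing neural tube and the interneurons and motor neurons that arise from them. They are 39 of the 23420 genes listed in the tables of counts, taken by name from a fixed list, of which 15 belong to dorsal domains (Atoh1 to Gbx1 in that list) and 24 to intermediate and ventral domains (Dbx1 onward). All 39 were found in both tables. The study sequenced messenger RNA of entire mouse embryos at E12.5, from 2 mutant lines and with a separate library for every embryo. In the Carm1 line, 3 embryos homozygous for the KO allele (tm1Mtb, Carm1 KO/KO, labelled Carm1 null) were compared with 3 Carm1 wild-type embryos, all labelled C57BL/6. In the Pax3 line, 3 embryos homozygous for the Splotch allele (Pax3 Sp2H/Sp2H, labelled Pax3 null) were compared with 3 Pax3 wild-type embryos, all of a strain labelled mixed. Both lines were bred by crossing heterozygotes, so the mutation was present in every cell of the mutant embryos. Carm1 encodes an arginine methyltransferase that acts as a transcriptional coactivator, and Pax3 encodes a paired-box factor of the dorsal neural tube, neural crest and somites.

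The neural tube is patterned along its dorsoventral axis by signals from the roof plate (BMP and Wnt) and from the floor plate and notochord (Sonic hedgehog). These signals set up stripes of progenitors, each with its own combination of homeodomain and basic helix-loop-helix factors, many of which repress the factors of the neighbouring stripe. Each stripe then yields a neuron class with its own factors, such as Evx1 in V0 commissural interneurons or Mnx1 in motor neurons. Because RNA came from whole embryos, brain as well as spinal cord contributed to each value, and many of these factors have sites outside the nervous system, such as Lhx2, Lhx9, Lmx1b and En1 in limb buds, Tal1 in blood, Lhx3 and Lhx4 in the pituitary, and Ptf1a and Mnx1 in the pancreas.

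Total counts per library lay between 17183344 and 23518692. At least 100 counts on 4 Y-linked genes were held by 1 of 6 libraries of the Carm1 line (a wild type) and by 3 of 6 of the Pax3 line (1 mutant and 2 wild types), and no more than 23 by any other library. The targeted gene Carm1 was at 144 ± 6.99 CPM in the wild types of its line and at 72.3 ± 3.55 CPM in Carm1 KO/KO (SD, n = 3 in each group), where CPM is a count scaled to library size. Pax3 had 20.8 ± 2.40 CPM in Pax3 Sp2H/Sp2H and 28.1 ± 2.99 CPM in wild-type embryos, with no overlap, so the mutant transcript was lower but still present.

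The levels of the 39 factors in wild-type embryos, divided by exon length, spanned a wide range. In the Carm1 line the highest were Tal1 at 18.5 ± 0.550, Neurog2 at 16.8 ± 0.823, Irx3 at 15.6 ± 0.591 and Lhx2 at 14.5 ± 0.221 CPM per kb (SD, n = 3). The same 4 genes led in wild-type embryos of the Pax3 line, headed by Irx3 at 19.3 ± 0.381 CPM per kb, with Lhx2 at 17.1 ± 0.774, Neurog2 at 16.5 ± 1.83 and Tal1 at 15.9 ± 1.0. Lhx2, Neurog2 and Tal1 were within their spread of each other there. The lowest levels per kb in the Carm1 line were those of Nkx2-9, Lhx4, Dbx2 and Atoh1, the last at 0.391 ± 0.207 CPM per kb. Nkx2-9 held 0, 0 and 2 counts in the wild-type libraries and 10, 4 and 4 counts in the Carm1 KO/KO libraries, too few to pass the filter in that line. In the alternatives that kept it, no filter on low counts and 1 fit of all 12 libraries, Nkx2-9 was called higher (edgeR adjusted P = 0.027 and 0.028). The lines were normalized separately, so the levels are set side by side as a description.

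**Figure D1:**
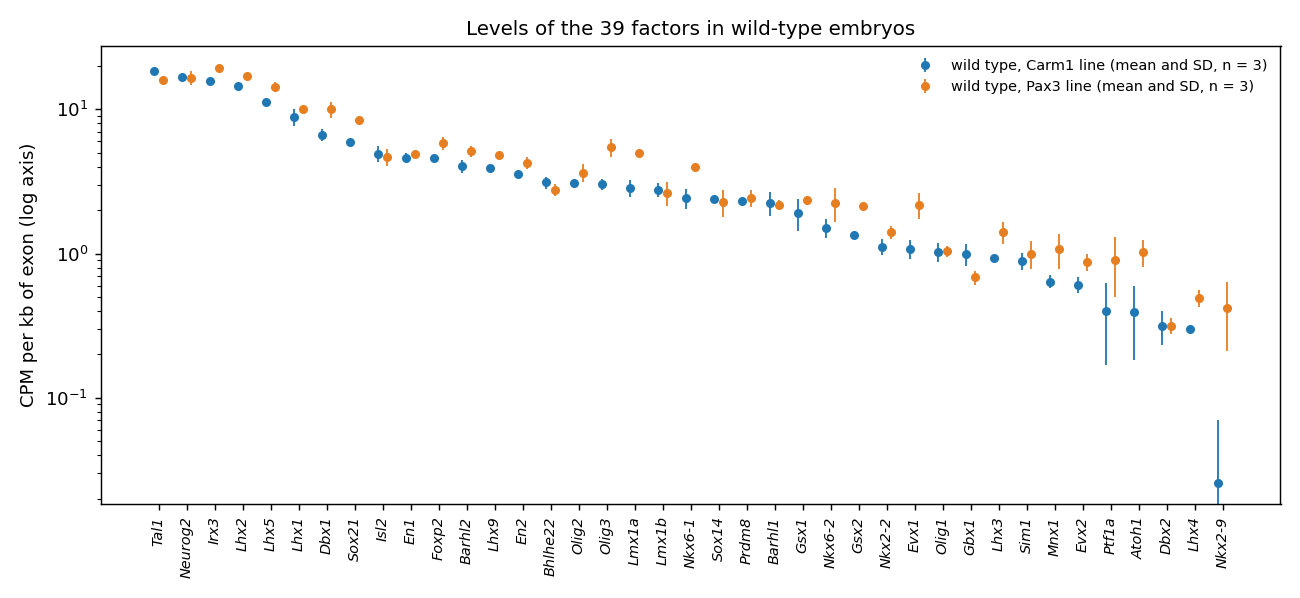
Level of each factor in wild-type embryos, as CPM per kb of exon on a log axis, with the mean and SD of 3 libraries for each line. Genes are ordered by their level in the Carm1 line, from Tal1 at 18.5 CPM per kb down to Nkx2-9, whose mean rests on 2 counts in all.

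In Carm1 KO/KO embryos, 8 factors rose and 1 fell among the 38 tested. The 8 were Atoh1, Olig3 and Lmx1a of the dorsal progenitors and roof plate, Dbx1 of the intermediate progenitors, Evx1 and Sox21 of interneurons and their progenitors, and the motor neuron and interneuron factors Lhx3 and Lhx4, by 0.40 to 1.22 on the log2 scale. Tal1, which specifies V2b interneurons and blood cells, was the only factor that fell. The test throughout was the quasi-likelihood test of edgeR, with P values adjusted by Benjamini-Hochberg over all genes tested and a threshold of 0.05. Of all 15811 genes tested in this line, 13.3% passed it, 5.49% higher and 7.83% lower in the mutants, against 23.7% of the 38 factors, 21.1% of them higher. Mutant and wild-type values did not overlap in 17 of the 38 factors, or 44.7%, against 30.0% of all genes tested. Fewer cells of a type and less RNA per cell cannot be told apart in RNA from whole embryos.

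Among dorsal progenitor factors of the Carm1 line, 3 of 7 rose and none fell. Atoh1, the proneural factor next to the roof plate and in the rhombic lip, had 2.36, 2.3 and 1.36 CPM in the mutants and 0.415, 1.29 and 0.780 CPM in the wild types, from 23 to 43 and 7 to 30 counts. The groups did not overlap but lay close, and Atoh1 rose by 1.22 on the log2 scale (SE 0.337, edgeR adjusted P = 0.013). Olig3, which marks the progenitors of the dorsal-most interneurons, had 11.8, 7.62 and 9.66 CPM in the mutants and 6.76, 5.63 and 6.39 CPM in the wild types. All mutant libraries were above all wild types, and the log2 fold change was 0.64 (SE 0.144, edgeR adjusted P = 0.0023). Lmx1a, a LIM-homeodomain factor of the roof plate, had 14.9, 16.9 and 15.9 CPM in the mutants and 8.78, 9.07 and 11.1 CPM in the wild types, again without overlap. Lmx1a rose by 0.71 on the log2 scale (SE 0.108, edgeR adjusted P = 1.5e-05), and kept its call in every alternative that was run. Atoh1 lost its call without mutant replicate 1 (edgeR adjusted P = 0.098), mutant replicate 2 (0.088) or wild-type replicate 1 (0.058), and Olig3 lost it without mutant replicate 1 (0.060).

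The other dorsal progenitor factors did not pass the test in the Carm1 line. Ptf1a, which directs inhibitory dorsal interneurons and the pancreas, had 16, 20 and 21 counts in the mutants and 12, 5 and 18 in the wild types, a log2 fold change of 0.88 with an SE of 0.415. Neurog2, a proneural factor of many domains, had 35.2, 32.5 and 31.4 CPM in the mutants and 38.0, 39 and 35.4 CPM in the wild types. The mutant libraries were all lower, by so little that the log2 fold change was -0.18 (edgeR adjusted P = 0.069). None of the 8 dorsal neuron factors (Lhx2, Lhx9, Lmx1b, Lhx1, Lhx5, Barhl1, Barhl2 and Gbx1) passed the test, with log2 fold changes from -0.33 to 0.16 and edgeR adjusted P values from 0.083 upward. Lhx9 came closest, at 41.4 ± 0.122 CPM in the mutants and 37.2 ± 0.731 CPM in the wild types.

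Among intermediate and ventral progenitor factors of the Carm1 line, Dbx1 alone passed the test, of 8 tested. Dbx1, the homeodomain factor of the p0 progenitors that yield V0 neurons, had 21.0, 19.3 and 19.2 CPM in the mutants and 13.2, 15.5 and 13.2 CPM in the wild types. The groups were well apart, and the log2 fold change was 0.50 (SE 0.0918, edgeR adjusted P = 2.3e-04). The other 7, namely Dbx2, Olig1, Olig2, Nkx2-2, Nkx6-1, Nkx6-2 and Irx3, had log2 fold changes from -0.52 (Olig1) to 0.40 (Nkx6-2). Irx3 was higher in every mutant library, at 48.2 ± 2.51 against 43.2 ± 1.63 CPM (edgeR adjusted P = 0.078).

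The interneuron factors of the Carm1 line moved in both directions. Evx1, which sets the identity of V0 commissural neurons downstream of Dbx1-positive progenitors, had 5.60, 6.05 and 5.13 CPM in the mutants and 2.61, 3.57 and 3.17 CPM in the wild types. Every mutant library lay above every wild-type library, and Evx1 rose by 0.83 on the log2 scale (SE 0.176, edgeR adjusted P = 0.0012). Its paralogue Evx2 had 4.06, 3.36 and 3.95 CPM against 2.91, 2.28 and 2.49 CPM, a log2 fold change of 0.58 that fell just short of the threshold (edgeR adjusted P = 0.052). Sox21, a SoxB2 repressor found in neural progenitors and in V2 interneurons, had 29.4, 31.0 and 28.8 CPM in the mutants and 22.7, 23.1 and 21.8 CPM in the wild types. The libraries within each group lay close together, and the log2 fold change was 0.40 (SE 0.0736, edgeR adjusted P = 2.4e-04). The remaining 7 (En1, En2, Foxp2, Sox14, Sim1, Prdm8 and Bhlhe22) had log2 fold changes between -0.29 and 0.25. En1, the factor of V1 neurons, was lower in every mutant library, at 9.83 ± 1.01 against 12.1 ± 1.02 CPM (edgeR adjusted P = 0.086).

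Tal1 had 51.9, 56.2 and 54.3 CPM in the Carm1 KO/KO and 81.1, 78.3 and 83.1 CPM in the wild-type libraries. No library of either group came near the other group, and Tal1 fell by 0.58 on the log2 scale (SE 0.0526, edgeR adjusted P = 9.7e-10), a call kept in every alternative. Of 10 erythroid genes tested in the same libraries, 8 fell and 1 rose. Gata1 (log2 fold change -0.62) and Epor (-0.62) fell, while the embryonic globin gene Hbb-bh1 rose by 1.30. The summed level of the erythroid genes other than globins was 69.8 to 76.6% of the wild-type mean in the mutants and 96.1 to 106% in the wild types, and with the globins Hba-x and Hbb-bh1 included it was 133 to 151% and 85.5 to 118%. In the Pax3 line that sum overlapped between the groups, and Tal1 had 82.3, 62.7 and 76.2 CPM in the mutants and 74.5, 67.4 and 66.4 CPM in the wild types, which also overlapped. Their part in the Tal1 result was not tested.

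Lhx3 and Lhx4, paralogous LIM-homeodomain factors of motor neurons and V2a interneurons, rose in Carm1 KO/KO embryos. Lhx3 had 5.54, 3.70 and 4.24 CPM in the mutants and 2.91, 2.88 and 2.68 CPM in the wild types, a log2 fold change of 0.67 (SE 0.194, edgeR adjusted P = 0.017). Lhx4 had 2.91, 3.19 and 3.65 CPM in the mutants and 1.84, 1.63 and 1.66 CPM in the wild types, a log2 fold change of 0.93 (SE 0.228, edgeR adjusted P = 0.0051). Mutant and wild-type libraries did not overlap for either gene. The motor neuron factors Mnx1 and Isl2, which mark the neurons after they leave the cell cycle, had log2 fold changes of 0.01 (SE 0.294) and -0.10 (SE 0.116) with overlapping groups. Mnx1 held only 33, 21 and 23 counts in the mutants and 26, 35 and 26 in the wild types. Its SE is too wide to set it apart from Lhx3 and Lhx4. The pituitary, another site of Lhx3 and Lhx4, was represented by 7 marker genes, whose sum was 95.3 to 107% of the wild-type mean in the mutants and 95.3 to 107% in the wild types. Lhx3 lost its call in DESeq2 (adjusted P = 0.057), without mutant replicate 1 (edgeR adjusted P = 0.17) and without wild-type replicate 2 (0.054).

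**Figure D2:**
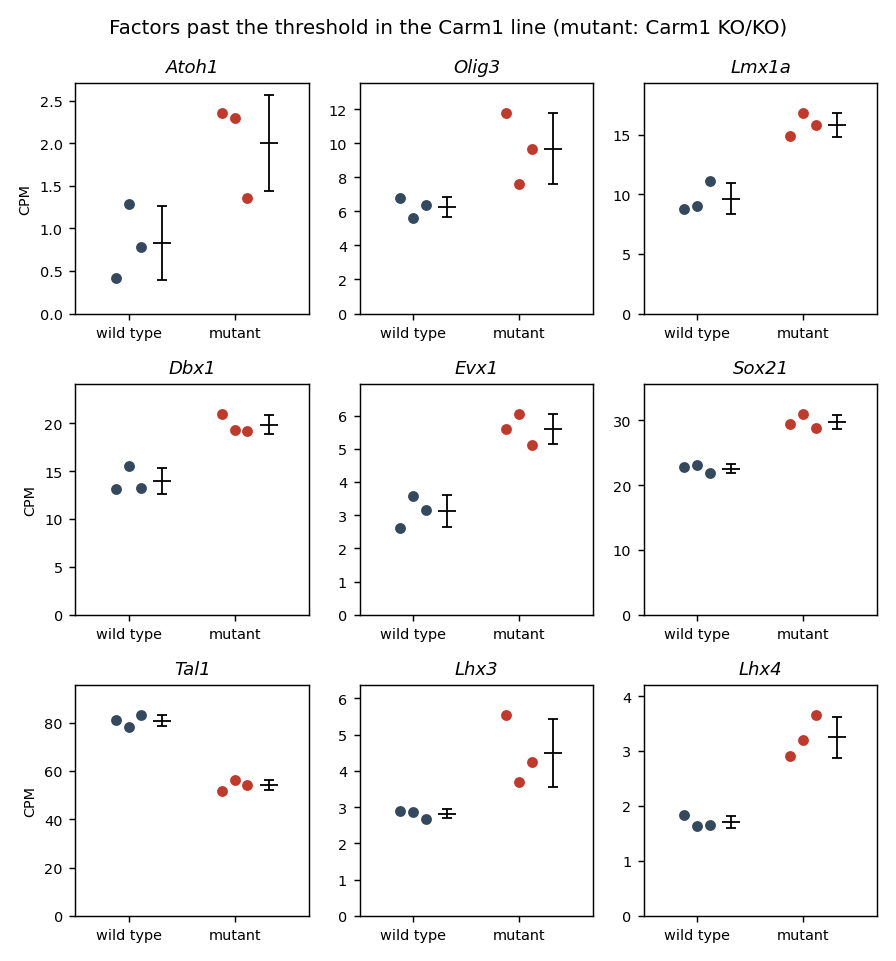
CPM of each of the 9 factors that passed the test in the Carm1 line, with 1 point per library and the mean and SD of 3 libraries beside them, on axes that start at 0. In each of the 9 panels the wild-type and Carm1 KO/KO points do not overlap, with Tal1 lower and the others higher in the mutants.

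The median log2 fold change over the 38 factors was 0.13 in the Carm1 line, against 0.0014 over all genes tested, and turned to -0.18 when libraries were scaled to a list of neural progenitor genes alone. That scaling, chosen after the data had been seen, moved the median of all genes to -0.31. General neural markers shifted in the same libraries. Of 13 neural progenitor genes, 10 rose and 1 fell, among them Rfx4 (log2 fold change 0.56), Hes5 (0.55), Sox3 (0.44) and Nes (0.43). Of 20 pan-neuronal genes, 10 fell and none rose, among them Stmn4 (-0.47), Mapt (-0.44), Nsg2 (-0.42) and Stmn2 (-0.26). The summed progenitor level was 122 to 128% of the wild-type mean in the mutants and 97.5 to 103% in the wild types, and the summed pan-neuronal level was 88.5 to 89.4% and 97.9 to 104%. Scaled to the progenitor list alone, Atoh1, Olig3, Lmx1a, Evx1, Lhx4 and Tal1 passed the test in the same direction, whereas Dbx1, Sox21 and Lhx3 did not (log2 fold changes 0.19, 0.09 and 0.36), and 16 factors were called lower. Of all 15811 genes tested, that scaling called 11404 lower and 112 higher.

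In Pax3 Sp2H/Sp2H embryos, 11 factors rose and 1 fell among the 39 tested. Of the 11, 10 belonged to the intermediate and ventral list, namely the ventral progenitor factors Irx3, Nkx6-1 and Nkx6-2, the interneuron factors Evx1, Evx2, En2, Sox21 and Bhlhe22, and Lhx3 and Lhx4. The dorsal list gave 1 higher gene, Neurog2, of 15. Rises lay between 0.25 and 0.67 on the log2 scale, and Foxp2 was the factor that fell. Of all 15724 genes tested in this line, 24.5% passed the threshold, 14.0% higher and 10.5% lower in the mutants, against 30.8% of the 39 factors, 28.2% of them higher. Among the intermediate and ventral factors 41.7% rose, and among the dorsal factors 6.67%; whether these shares differ was not tested. Mutants and wild types did not overlap in 13 of the 39 factors, or 33.3%, against 39.6% of all genes tested. The median log2 fold change was 0.14, against -0.0026 over all genes tested, and -0.0053 when scaled to the neural progenitor list alone, which moved the median of all genes to -0.14.

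Of the ventral progenitor factors, 3 of 9 rose in the Pax3 line. Irx3, which together with Nkx6 factors divides the ventral neural tube into domains, had 70.0, 65.1 and 68.6 CPM in the mutants and 54.5, 52.4 and 53.3 CPM in the wild types. The groups lay apart by several times their SD, with a log2 fold change of 0.35 (SE 0.0589, edgeR adjusted P = 9.0e-05). Nkx6-1, required for motor neuron progenitors, had 14.9, 16.7 and 17.1 CPM in the mutants and 12.1, 12.2 and 13.1 CPM in the wild types, a log2 fold change of 0.37 (SE 0.0979, edgeR adjusted P = 0.0061). Nkx6-2 had 6.48, 7.06 and 5.77 CPM in the mutants and 3.32, 5.50 and 4.04 CPM in the wild types, a log2 fold change of 0.60 (SE 0.165, edgeR adjusted P = 0.0091). The mutants were above the wild types in each case, although for Nkx6-2 the nearest libraries were 5.77 and 5.50 CPM. With offsets for exon length and GC, the calls of Irx3 (log2 fold change 0.11), Nkx6-1 (0.21) and Nkx6-2 (0.28) were lost. Nkx6-2 also lost its call without wild-type replicate 1 (edgeR adjusted P = 0.066) or mutant replicate 2 (0.051). The other ventral progenitor factors, Dbx1, Dbx2, Olig1, Olig2, Nkx2-2 and Nkx2-9, had log2 fold changes between -0.06 and 0.22.

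Of the interneuron factors, 5 of 11 rose and 1 fell in the Pax3 line. Evx1 had 8.76, 8.38 and 8.82 CPM in the mutants and 4.98, 7.47 and 6.40 CPM in the wild types, a log2 fold change of 0.47 (SE 0.137, edgeR adjusted P = 0.013). Evx2 had 5.86, 5.42 and 5.26 CPM in the mutants and 3.17, 4.17 and 3.65 CPM in the wild types, a log2 fold change of 0.59 (SE 0.159, edgeR adjusted P = 0.0076). Mutants and wild types were separate for both paralogues. En2, best known for patterning the midbrain and anterior hindbrain, had 28.3, 22.1 and 21.4 CPM in the mutants and 14.2, 14.1 and 16.6 CPM in the wild types. En2 rose by 0.67 on the log2 scale (SE 0.104, edgeR adjusted P = 3.8e-05), the largest change among the factors called in this line. The mutants were well above the wild types in both En2 and Sox21. Sox21 had 52.3, 50.1 and 39.2 CPM in the mutants and 30.4, 33.3 and 32.6 CPM in the wild types. Sox21 rose by 0.56 on the log2 scale (SE 0.0902, edgeR adjusted P = 7.1e-05). Evx2, En2 and Sox21 kept their calls in every alternative, whereas Evx1 lost its call without wild-type replicate 1 (edgeR adjusted P = 0.097), without mutant replicate 3 (0.052) and with the length and GC offsets (0.17).

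Bhlhe22, a basic helix-loop-helix repressor of several dorsal and ventral interneuron classes, had 13.9, 10.1 and 12.4 CPM in the Pax3 Sp2H/Sp2H and 8.25, 9.67 and 9.84 CPM in the wild-type libraries. The closest libraries were nearly level, and the log2 fold change was 0.39 (SE 0.122, edgeR adjusted P = 0.020). Foxp2, a forkhead factor of a subset of V1 neurons that is also expressed in many other tissues, had 80.8, 76.5 and 86.3 CPM in the mutants and 104, 84.9 and 95.8 CPM in the wild types. The groups overlapped, and Foxp2 fell by 0.23 on the log2 scale (SE 0.0666, edgeR adjusted P = 0.014). Bhlhe22 lost its call without wild-type replicate 1 (edgeR adjusted P = 0.10), mutant replicate 1 (0.16) or mutant replicate 3 (0.077), and Foxp2 without wild-type replicate 1 (0.088), mutant replicate 1 (0.051) or mutant replicate 2 (0.087) and with the length and GC offsets (0.48). The factors En1, Sox14, Tal1, Sim1 and Prdm8 had log2 fold changes between -0.22 and 0.19 and did not pass the test.

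Lhx3 and Lhx4 rose in the Pax3 line too, with wide spreads. Lhx3 had 6.03, 7.28 and 5.13 CPM in the mutants and 3.42, 4.75 and 4.68 CPM in the wild types, a log2 fold change of 0.52 (SE 0.165, edgeR adjusted P = 0.022). Lhx4 had 3.93, 3.51 and 4.50 CPM in the mutants and 3.22, 2.72 and 2.49 CPM in the wild types, a log2 fold change of 0.51 (SE 0.185, edgeR adjusted P = 0.046). The groups did not overlap in either gene. Isl2, a LIM-homeodomain factor of motor and sensory neurons, had 7.73, 8.56 and 8.19 CPM in the mutants and 8.69, 11.2 and 10.8 CPM in the wild types. Isl2 was lower in every mutant library and just missed the threshold (log2 fold change -0.32, edgeR adjusted P = 0.0504). Mnx1 was at 3.25 ± 0.255 CPM in the mutants and 2.40 ± 0.656 CPM in the wild types (edgeR adjusted P = 0.13). The summed pituitary markers were at 85.7 to 94.0% of the wild-type mean in the mutants and 97.2 to 103% in the wild types. Lhx3 lost its call without wild-type replicate 1 (edgeR adjusted P = 0.13), mutant replicate 1 (0.051) or mutant replicate 2 (0.15), and Lhx4 without wild-type replicate 2 (0.083), wild-type replicate 3 (0.15), mutant replicate 1 (0.099) or mutant replicate 3 (0.20). Lhx3 also lost it with the length and GC offsets (edgeR adjusted P = 0.16) and Lhx4 with a term for Y-linked counts (0.051). In DESeq2 neither passed (adjusted P = 0.051 for Lhx3 and 0.11 for Lhx4).

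Among the 15 dorsal factors of the Pax3 line, Neurog2 alone passed the test. Neurog2 had 47.1, 41.1 and 43.2 CPM in the mutants and 32.1, 39.3 and 39.1 CPM in the wild types, a log2 fold change of 0.25 (SE 0.0833, edgeR adjusted P = 0.028). The lowest wild-type library stood away from the other two, and without it (wild-type replicate 1) the adjusted P was 0.16. The call was also lost without mutant replicate 1 (edgeR adjusted P = 0.16) or mutant replicate 3 (0.062) and with the length and GC offsets (0.51). Atoh1, Gsx1, Gsx2, Olig3, Lmx1a and Ptf1a had log2 fold changes between -0.55 and 0.07, and Ptf1a, at the low end, had 25, 18 and 21 counts in the mutants and 17, 21 and 47 in the wild types. The 8 dorsal neuron factors had log2 fold changes from 0.00 (Lhx9) to 0.41 (Gbx1), and none passed the test. Lhx5, expressed in several dorsal and intermediate interneuron classes, came closest at 43.5 ± 2.09 against 38.3 ± 3.06 CPM (edgeR adjusted P = 0.087).

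**Figure D3:**
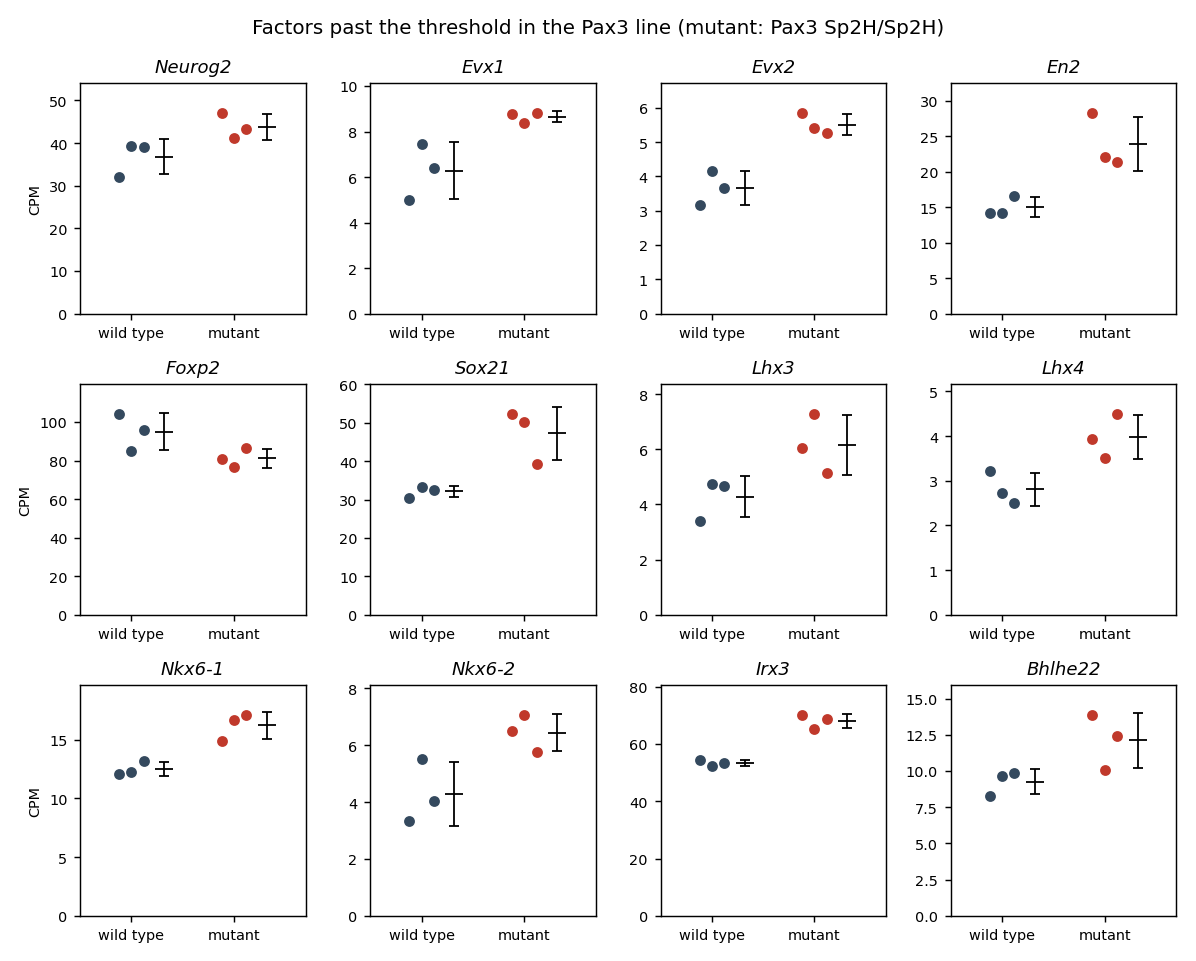
CPM of each of the 12 factors that passed the test in the Pax3 line, with 1 point per library and the mean and SD of 3 libraries beside them, on axes that start at 0. In the 11 factors that rose, the Pax3 Sp2H/Sp2H points are all above the wild-type points, and in Foxp2 the groups overlap.

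The count of calls in the Pax3 line depended on single libraries and on the offsets. Without wild-type replicate 1 of the Pax3 line, or without mutant replicate 1, 7 of the 39 factors were called in place of 12, and with offsets for length and GC content 6 were, 5 of the 12 and Isl2, which was lower. Calls over all genes were 2760 of 15917, 2565 of 15907 and 2729 of 15724 in that order, against 3851 of 15724 in the main fit. In these settings the share of factors called was close to that of all genes. Scaled to the neural progenitor list alone, 6 of the 12 (Neurog2, Evx1, Nkx6-1, Bhlhe22, Lhx3 and Lhx4) lost their calls. The factors had a median exon GC content of 56.0% in that line, against 50.0% for all genes tested, and a median exon length of 2877 against 4334.5 bases. General neural markers shifted in the Pax3 line as well. Of 13 neural progenitor genes 7 rose and none fell, among them Hes5 (log2 fold change 0.50) and Sox3 (0.46). Of 20 pan-neuronal genes 2 rose and 6 fell, with the largest changes in Stmn3 (0.36), which rose, and Nefl (-0.34), which fell. The summed progenitor level was 104 to 115% of the wild-type mean in the mutants and 95.6 to 102% in the wild types, and the summed pan-neuronal level 88.3 to 95.4% and 96.4 to 103%. Genes of neural crest and ganglia, the crest being a tissue known to depend on Pax3, had 6 of 10 lower and none higher, with Sox10 at -0.89 and Erbb3 at -0.59 on the log2 scale, and their sum was at 67.1 to 72.6% of the wild-type mean in the mutants. Their part in the values of the 39 factors was not tested.

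**Figure D4:**
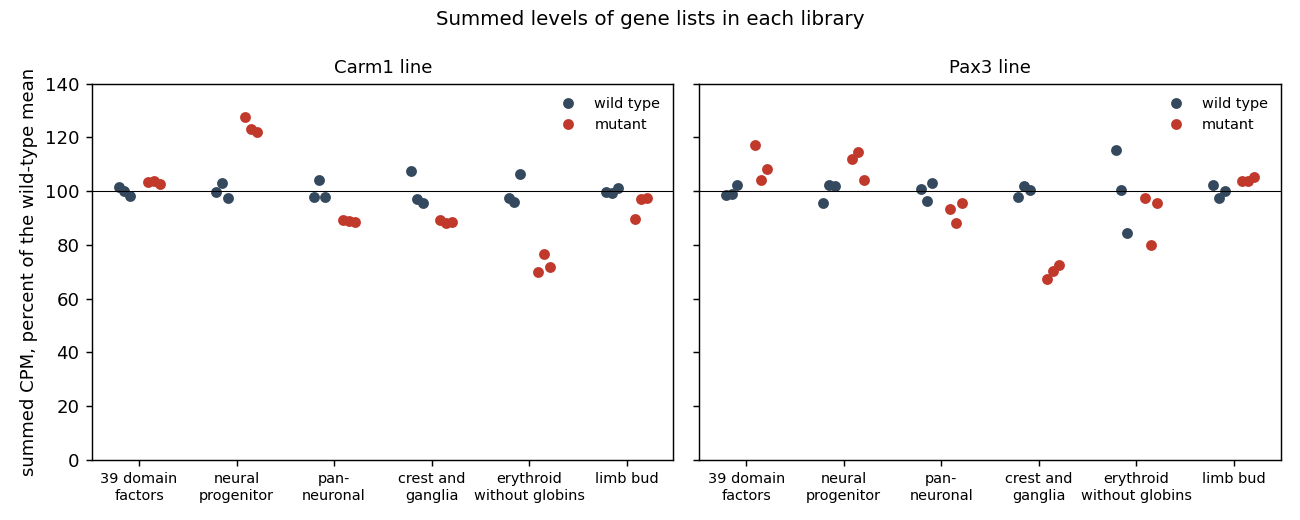
Summed CPM of the 39 factors and of marker lists in each library, as a percentage of the wild-type mean of the line, with 1 point per library. The 39 factors together are at 103 to 104% in the Carm1 KO/KO and 104 to 117% in the Pax3 Sp2H/Sp2H libraries, while neural progenitor genes are higher and pan-neuronal genes lower in the mutants of both lines, and the crest and ganglia genes reach their lowest level in Pax3 Sp2H/Sp2H. In the Carm1 line the sum of the 39 has a mean of 624 CPM in the mutants and 604 CPM in the wild types. It includes Tal1, a factor also of blood, at 54.1 CPM in the mutants and 80.8 CPM in the wild types.

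Evx1, Lhx3, Lhx4 and Sox21 rose in both lines. They are 44.4% of the 9 factors called in the Carm1 line and 33.3% of the 12 called in the Pax3 line, whose samples are separate, and 10.5% of the 38 factors tested in both. Over all 15461 genes tested in both lines 1.12% rose in both, which is 8.36% of those called in the Carm1 line and 4.51% of those called in the Pax3 line. In all, 17 factors were called in at least 1 line and 22 in neither. Across the 38 factors tested in both lines, 20 had positive fold changes in both, 3 negative fold changes in both and 15 opposite signs. The fold changes of the lines had a Pearson r of 0.016 and a Spearman rho of 0.14 over these 38 genes, which are not independent replicates. For the 4 shared genes the log2 fold changes in the Carm1 and Pax3 lines were 0.83 and 0.47 (Evx1), 0.67 and 0.52 (Lhx3), 0.93 and 0.51 (Lhx4), and 0.40 and 0.56 (Sox21). Evx1 lies at chr6:52313498-52318378, Lhx3 at chr2:26200212-26208289, Lhx4 at chr1:155698031-155751684 and Sox21 at chr14:118233232-118237030 on GRCm38. Evx1, Lhx3 and Sox21 each share exon bases with a transcript on the opposite strand (Evx1os, Gm27196 and Gm4675), as do Irx3 (Irx3os) and Nkx6-2 (Inpp5a) among 10 of the 39 factors in all, and since the strand setting of the counting is not given in the sources used here, reads of the partners cannot be told apart.

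**Figure D5:**
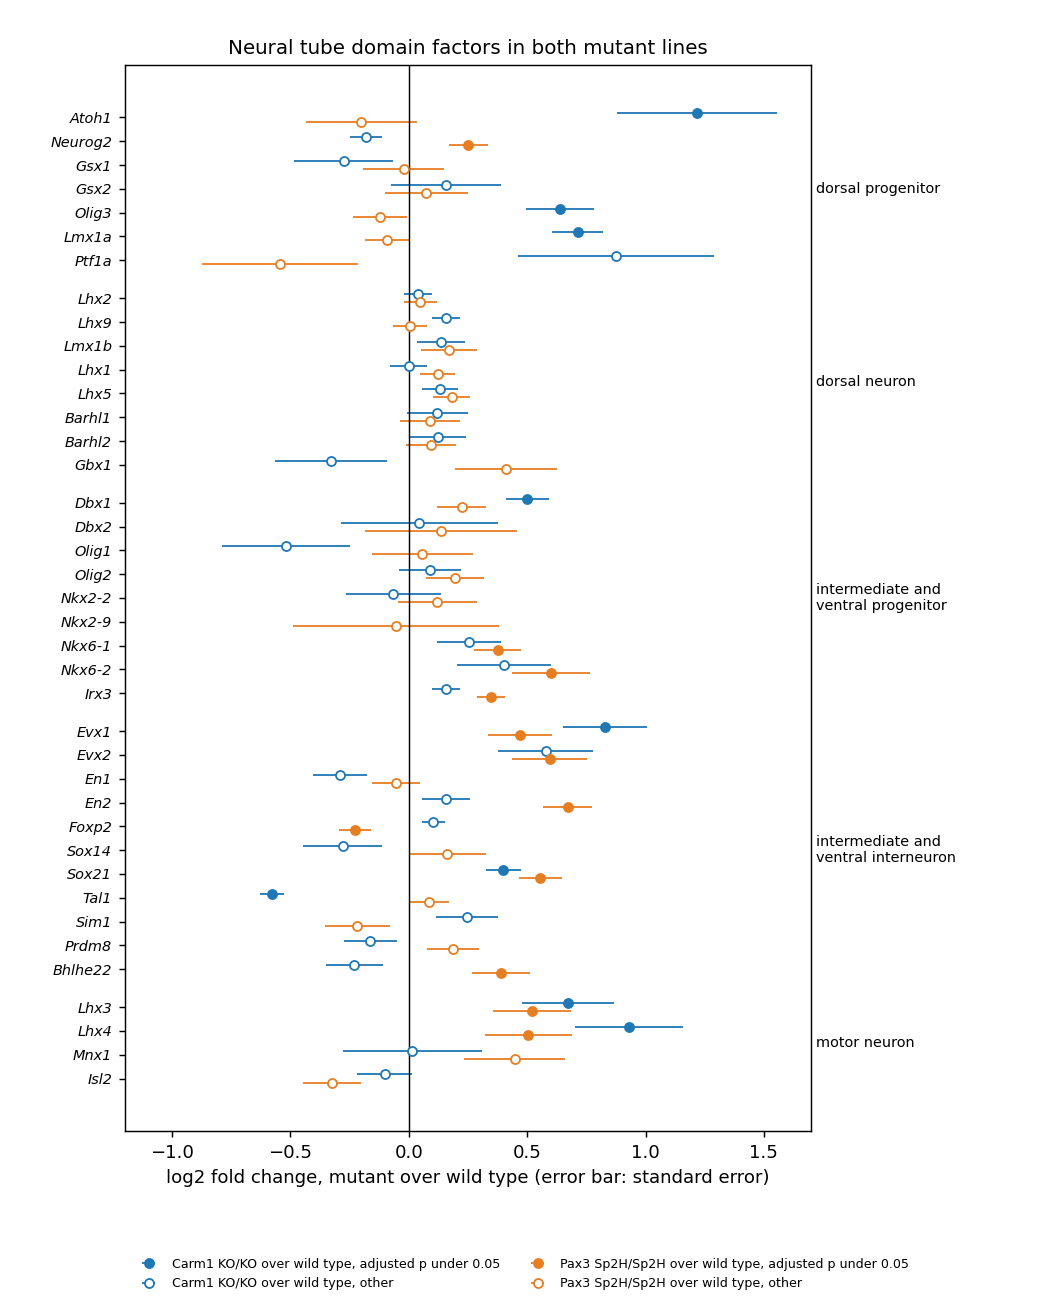
Log2 fold change, mutant over wild type, of the 39 factors in both lines with standard errors, grouped by role, where filled points passed the threshold of 0.05. Filled points of both colours stand to the right of 0 for Evx1, Sox21, Lhx3 and Lhx4, the dorsal neuron group has no filled point, and Nkx2-9 has no value in the Carm1 line.

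The promoters of these 4 genes are shown because they are the factors that rose in both lines. Each run is the 250 bases before a RefSeq transcription start on GRCm38.p6, written 5′ to 3′ on the strand of the gene, with CpG dinucleotides in capitals. Lhx3 has 2 annotated starts.
Evx1, chr6:52313248-52313497, + strand: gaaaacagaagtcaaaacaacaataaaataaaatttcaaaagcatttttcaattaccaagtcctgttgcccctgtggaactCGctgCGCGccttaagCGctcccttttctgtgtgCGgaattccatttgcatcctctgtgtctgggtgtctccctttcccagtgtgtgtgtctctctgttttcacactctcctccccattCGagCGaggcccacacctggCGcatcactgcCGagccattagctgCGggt
Sox21, chr14:118237031-118237280, - strand: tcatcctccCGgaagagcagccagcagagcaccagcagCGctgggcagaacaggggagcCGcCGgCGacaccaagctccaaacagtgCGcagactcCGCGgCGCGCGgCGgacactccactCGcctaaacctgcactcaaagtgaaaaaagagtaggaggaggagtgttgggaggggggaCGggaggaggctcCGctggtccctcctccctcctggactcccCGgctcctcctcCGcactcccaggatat
Lhx3 upstream start, chr2:26208250-26208499, - strand: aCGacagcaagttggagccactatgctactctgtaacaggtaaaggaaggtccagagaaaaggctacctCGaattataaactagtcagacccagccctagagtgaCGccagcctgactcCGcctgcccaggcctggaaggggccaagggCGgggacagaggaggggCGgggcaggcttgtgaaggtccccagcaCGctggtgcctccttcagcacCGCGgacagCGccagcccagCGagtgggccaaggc
Lhx3 downstream start, chr2:26206576-26206825, - strand: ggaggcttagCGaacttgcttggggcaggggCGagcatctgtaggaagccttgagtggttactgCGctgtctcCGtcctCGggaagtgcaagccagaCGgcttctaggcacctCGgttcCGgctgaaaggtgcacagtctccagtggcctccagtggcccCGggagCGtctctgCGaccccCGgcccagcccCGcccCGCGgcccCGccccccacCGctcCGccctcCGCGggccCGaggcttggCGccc
Lhx4, chr1:155742028-155742277, - strand: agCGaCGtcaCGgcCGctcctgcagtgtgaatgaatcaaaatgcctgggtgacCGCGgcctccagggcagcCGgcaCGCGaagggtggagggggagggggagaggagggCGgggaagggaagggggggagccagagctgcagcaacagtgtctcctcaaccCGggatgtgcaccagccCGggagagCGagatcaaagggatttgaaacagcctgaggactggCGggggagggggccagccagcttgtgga
They hold 10 (Evx1), 17 (Sox21), 11 and 22 (Lhx3) and 14 (Lhx4) CpG dinucleotides. Promoter windows were found for 33 of the 39 factors, 37 windows in all, and the median window of the factors held 14 CpG dinucleotides and 61.6% GC in those 250 bases, against 6 and 52.4% over all 32851 windows. Motifs were searched in the whole windows of 300 bases, which add the first 50 bases after the start. The letters GTCACGC, a core of the sequence bound by the paired domain of Pax proteins, occurred on either strand in 3 of the 37 windows (8.11%, those of Barhl2, En1 and Prdm8) and in 2.09% of all windows. The homeodomain core TAATTA, which reads the same on both strands, occurred in 1 of the 37 (2.70%, Barhl1) and in 5.29% of all windows. The E-box CAGCTG, the same on both strands, occurred in 13.5% of the windows of the factors and 16.3% of all windows, and the letters TATAAA on either strand in 18.9% and 13.6%. Neither GTCACGC nor TAATTA lies in the windows of the 4 genes printed above.

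The effects of the mutations differed between the lines for 9 of the 39 factors (23.1%) in a test of the interaction, close to the 19.1% called over all 16292 genes tested for it. Lmx1a (chr1:167689237-167848741) responded more in the Carm1 line by 0.82 on the log2 scale (SE 0.145, edgeR adjusted P = 1.3e-04), having 16.1, 14.2 and 17.1 CPM in Pax3 Sp2H/Sp2H and 17, 17.1 and 16.4 CPM in the wild types of that line. Olig3 had 10.7, 10.1 and 10.4 CPM in Pax3 Sp2H/Sp2H and 10.1, 10.7 and 13.1 CPM in their wild types, and its effects differed by 0.77 (SE 0.186, edgeR adjusted P = 0.0032). For Atoh1, at 1.92, 1.87 and 1.82 CPM in Pax3 Sp2H/Sp2H and 1.66, 2.55 and 2.28 CPM in their wild types, the difference was 1.43 (SE 0.414, edgeR adjusted P = 0.014). These 3 dorsal factors rose in Carm1 KO/KO embryos, while in the Pax3 line their groups overlapped. The effects on Neurog2 (difference -0.42), En2 (-0.50) and Bhlhe22 (-0.61), which rose in the Pax3 line, were more positive there. Their log2 fold changes in the Carm1 line were -0.18, 0.16 and -0.23, and none was called in that line. In the Carm1 line En2 had 13.7, 15.1 and 13.2 CPM in the mutants and 13.5, 12.3 and 11.9 CPM in the wild types, and Bhlhe22 had 9.77, 8.18 and 8.60 against 11.4, 10.4 and 9.41 CPM. Foxp2 (difference 0.34), which fell in the Pax3 line, had 81.6, 80.9 and 78.1 CPM in Carm1 KO/KO and 73.9, 75.4 and 74.6 CPM in their wild types, slightly higher in every mutant, and Tal1 (-0.65) fell in the Carm1 line. Nkx2-9, at the limit of detection in the Carm1 line, was the last of the 9. Of the 8 factors called in the Pax3 line alone, Evx2, Nkx6-1, Nkx6-2 and Irx3 did not pass the interaction test, with differences between -0.19 and 0.00, and neither did Dbx1, called in the Carm1 line alone, at 0.29 (SE 0.147, edgeR adjusted P = 0.17).

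Other genes of dorsoventral patterning were read from fixed lists. Of 44 other domain factors tested, 12 rose and 2 fell in the Carm1 line, with a median log2 fold change of 0.16 that became -0.15 when scaled to the neural progenitor list alone. Among the genes called at a mean of 1 CPM or more, the largest changes were in Msx3, a dorsal homeobox gene, at 18.5 ± 0.426 against 9.37 ± 0.149 CPM (log2 fold change 0.98), followed by Prdm13 (0.60), Neurog1 (0.53) and Zic5 (0.44), all higher and all found in dorsal progenitors. In the Pax3 line 4 of the 44 rose and 5 fell, Pax3 itself among the latter, led by the sensory neuron genes Prrxl1 (-1.12), Prdm12 (-0.97) and Pou4f1 (-0.46), while Msx1 rose by 0.48. Of 20 signals and their pathway genes, Shh, the floor plate and notochord signal, was the only gene that passed the test in the Carm1 line, at 14.3 ± 0.758 CPM in the mutants and 8.80 ± 0.785 CPM in the wild types (log2 fold change 0.70, SE 0.108, edgeR adjusted P = 2.4e-05). In the Pax3 line 4 of the 20 rose and 3 fell, among them the roof plate signal Gdf7 (0.75) and the hedgehog target Gli1 (0.34), which rose, and the hedgehog co-receptor Cdon (-0.30) and Bmp5 (-0.29), which fell. Pax3 itself rose in Carm1 KO/KO embryos, from 22.3 ± 1.86 to 29.0 ± 1.52 CPM (log2 fold change 0.37, edgeR adjusted P = 0.0010).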

How the data were processed

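Polyadenylated RNA of 12 whole embryos was sequenced by the study, 3 per group. Per the submitters' notes and methods, the authors used STAR for alignment of read pairs to mm10 and featureCounts for counting over exons. Tool versions, strandedness and the handling of multi-mapping reads are not given in the sources used here. The deposited tables hold raw counts, without normalization or pooling, for 23420 genes listed by symbol. Groups and replicate numbers come from the labels. The methods give 3 embryos per group but not their litters, so P values measure the spread between these libraries. In all, 0 columns of values were left unmapped.

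Each line was tested alone with edgeR (version 4.0.16, R 4.3.3): TMM factors, filterByExpr, robust quasi-likelihood fits and Benjamini-Hochberg adjustment over all genes tested at 0.05. An interaction of line and genotype was fitted to all 12 libraries. CPM uses TMM-scaled library sizes, and an SD covers 3 libraries. An exact permutation test of 3 against 3 cannot go below 0.1, so single genes rest on these fits, and lists are described by counts and medians with no test. Alternatives were DESeq2 (version 1.42.0, the study's tool), RLE and upper-quartile factors, no filter, at least 10 counts in every library, the replicate number as a block, 1 fit of all 12 libraries, a term for Y-linked counts, offsets for transcript length and GC content (splines with 5 degrees of freedom), scaling to neural marker lists, and leaving out each library in turn. The fits were checked on simulated counts.

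The 39 members and the gene lists were chosen with earlier results of these data known. All members called in a line or in the interaction are given in every library of the line concerned; genes of other lists are named where they are among the 4 called genes of largest fold change with a mean of 1 CPM or more. A few of these are not reported here. Symbols were matched to GENCODE M21 on GRCm38, the build of mm10 (21777 as written, 1297 by an older symbol, 346 unmatched). Promoters are RefSeq windows on GRCm38.p6.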

Additional observations from a re-analysis of the deposited data

Results flagged for a closer look

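For 9 factors the effect of the mutation differed between the Carm1 line and the Pax3 line in the interaction test of edgeR, each line against its own wild types, or 23.1% of the 39 against 19.1% of all genes tested. The log2 effect in the Carm1 line minus that in the Pax3 line was 1.43 for Atoh1, 0.77 for Olig3, 0.82 for Lmx1a and 0.34 for Foxp2, and it was -0.42 for Neurog2, -0.50 for En2, -0.65 for Tal1 and -0.61 for Bhlhe22. The value of 3.20 for Nkx2-9 rests on 18 counts in the Carm1 KO/KO and 2 counts in the wild-type libraries of the Carm1 line, with 0 in 2 of them, so its size depends on the prior count of the fit. Nkx2-9 was not tested in the Carm1 line on its own and not called in the Pax3 line, held 11, 15 and 10 counts in Pax3 Sp2H/Sp2H and 10, 5 and 19 in their wild types, and its interaction lost significance when any of 6 of the 12 libraries was left out. Lmx1a, Olig3 and Tal1 kept the interaction call in every alternative. Atoh1 lost it without Carm1 wild-type replicate 1 (edgeR adjusted P = 0.0503), Bhlhe22 (0.051) and En2 (0.081) without Pax3 Sp2H/Sp2H replicate 1, En2 (0.053) and Neurog2 (0.082) with the length and GC offsets, and Foxp2 when scaled to the neural progenitor list alone (0.32). The lines also differ in strain, and the wild types of the Carm1 line had lower mean levels of Lmx1a, Olig3 and Atoh1 than those of the Pax3 line.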

How the results depend on the processing

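No called factor changed sign in any alternative, but the counts of calls moved. In the Carm1 line, where 9 factors were called, a term for Y-linked counts gave 2 lower factors in place of 1, and scaling to both neural lists moved the median to 0.16. Scalings chosen after the data had been seen moved it most: with the pan-neuronal list alone, 22 were called, 21 higher, with a median of 0.30 (all genes 0.17), and with the neural progenitor list alone 21 were called, 5 higher and 16 lower, with a median of -0.18. Of all 15811 genes, the pan-neuronal scaling called 6620 higher and 535 lower. The progenitor scaling called 112 of them higher and 11404 lower. Leaving out 1 library gave 5 (without Carm1 KO/KO replicate 1) to 8 higher factors and 1 to 2 (without wild-type replicate 3) lower. Over all genes it gave 469 to 1015 higher and 755 to 1275 lower. In the Pax3 line, where 12 were called, RLE factors, upper-quartile factors and 1 fit of all 12 libraries gave 2 lower factors, and scaling to both neural lists or to the pan-neuronal list alone gave 0, where Foxp2 had edgeR adjusted P values of 0.056 and 0.32. The pan-neuronal scaling gave a median of 0.25 (all genes 0.11), and the progenitor scaling 5 higher, 3 lower and a median of -0.0053. Of all 15724 genes, the progenitor scaling called 892 higher and 4384 lower. Length and GC offsets gave 6 called, 5 of them higher, with a median of 0.057, of which 5 were among the 12. They turned 3851 calls over all genes of that line into 2729. Over all genes of the Carm1 line they turned 868 higher and 1238 lower into 1879 and 1282. Leaving out 1 library gave 7 (without wild-type replicate 1 or mutant replicate 1) to 13 called, 6 to 12 higher, 0 (without mutant replicate 1 or 2) to 1 lower, and a median of 0.067 (without mutant replicate 1) to 0.19. Calls over all genes of the Pax3 line then ranged from 2454 to 4103. With the replicate number as a block, 8 were higher and 1 lower in the Carm1 line, 11 higher and 2 lower in the Pax3 line, and 9 interactions were called. Libraries with the same number did not all deviate together (correlations of -0.040 to 0.0020 in the Carm1 line and -0.12 to 0.23 in the Pax3 line), and no Carm1 KO/KO library and 2 of 3 Pax3 Sp2H/Sp2H libraries correlated best with their own number. Low counts limit Atoh1, Ptf1a, Dbx2 and Nkx2-9, and Mnx1 in the Carm1 line.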

Other observations

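Markers of other tissues in which these factors are also expressed were read in the same libraries. Of 15 regional genes of the fore- and midbrain, 2 rose and 2 fell in the Carm1 line, where Neurod6, a gene of young cortical neurons, fell by 1.37 while Otx1 (0.28) and Otx2 (0.28) rose on the log2 scale. In that line 11 of the 15 had negative and 4 positive fold changes, with a median of -0.15. Their sum was 89.3 to 95.7% of the wild-type mean in the mutants and 98.0 to 104% in the wild types. In the Pax3 line Neurod6 (-0.65) and Eomes (-0.29) fell and none rose. Of 11 limb bud genes, Prrx2 rose by 0.24 and Prrx1 fell by 0.18 in the Carm1 line, and Msx1 (0.48), Pitx1 (0.42) and Prrx2 (0.37) rose in the Pax3 line. Of 10 crest and ganglia genes, 2 fell in the Carm1 line, among them Prph (-0.35). Of 7 kidney genes, Eya1 rose by 0.27 and Osr1 fell by 0.28 in the Carm1 line, and in the Pax3 line Six2 rose by 0.32 while Ret (-0.44) and Eya1 (-0.23) fell. Of the pituitary and pancreas lists, 2 or 3 of 7 genes were high enough to test, and of the retina list 6 of 7, and Pomc (1.07) rose and Pou4f2 (-0.48) fell among the genes called in the Pax3 line, while none was called in the Carm1 line.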
